A study of Homo sapiens and Mus musculus with 20 samples.

Results

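The proteasome subunit genes described here were 31 protein-coding genes named by symbol, of 19974 in the RefSeq table for GRCh38. They comprise 14 genes of the core particle, 9 of the base and 8 of the lid. The core genes are PSMA1 to PSMA7, which form the outer alpha rings, and PSMB1 to PSMB7, which form the inner beta rings. The base genes are the ATPases PSMC1 to PSMC6 and the non-ATPase subunits PSMD1, PSMD2 and PSMD4. The lid genes are PSMD3, PSMD6, PSMD7, PSMD8, PSMD11, PSMD12, PSMD13 and PSMD14. Every region of the human lists that lay in a gene body or within 2.5 kb of a gene end was assigned to that gene, and no region was assigned to more than 1 member.

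The proteasome is the barrel-shaped protease that degrades ubiquitin-tagged proteins. The beta subunits encoded by PSMB5, PSMB6 and PSMB7 carry its catalytic sites, and PSMB5 is the main target of bortezomib, carfilzomib and ixazomib. Substrates reach the core through the regulatory particle, whose base unfolds them with its ATPase ring and whose lid removes ubiquitin through PSMD14. Plasma cells make and fold large amounts of immunoglobulin and depend strongly on proteasome activity, which is why inhibitors are used in multiple myeloma. KDM6A is a demethylase that removes methyl groups from H3K27me3, a mark of repressed chromatin. It also belongs to the complexes that deposit H3K4me1, a mark of enhancers, and H3K27ac marks active promoters and enhancers.

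Chromatin immunoprecipitation lists from 16 human libraries were used, and 4 lists from mouse fibroblasts were not used here. ARP1, a human myeloma cell line, was labelled KDM6A wild type (WT), knock out (KO) or JmjD-dead, with H1146E in the titles of the JmjD-dead libraries. Lists for H3K27ac, H3K27me3 and input covered the 3 ARP1 genotypes, and those for H3K4me1 covered WT and KO. A KDM6A antibody was used in ARP1 WT, ARP1 KO and KARPAS, a line also labelled multiple myeloma and KDM6A wild type. An HA antibody was used in ARP1 labelled wild type and in a line with HA-tagged in its title and knock out as its genotype. The title of the KO H3K4me1 library names neither KDM6A nor KO, unlike the other KO titles. Its KO label comes from its genotype field, and whether it is the same line was not stated. The labels do not say whether a KO line is 1 clone, how tagged KDM6A was introduced or what agents the cells received. Each group had 1 library, so no difference has a replicate check and no test was possible.

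The promoters that the motif and KDM6A results turn on are printed first. Each sequence is the 250 bases before the most upstream start among the promoter entries available for the gene (GRCh38.p14), read 5′ to 3′ on the gene's own strand. At PSMA1, PSMA6, PSMC2 and PSMD6 the annotated gene extends upstream of the start used. A promoter entry was found for 26 of the 31 members, and PSMA7, PSMB1, PSMB6, PSMB7 and PSMD4 had none. Capitals mark the antioxidant response element TGACNNNGC, the site bound by NFE2L1, the factor known to raise subunit transcription when the proteasome is inhibited. PSMB3 (chr17:38752491-38752740, plus strand), PSMD3 (chr17:39980557-39980806, plus strand) and PSMD12 (chr17:67366578-67366827, minus strand) are shown because they hold that element. PSMB5 (chr14:23035221-23035470, minus strand) is shown as the drug target, and the element was not found in it.
PSMB3: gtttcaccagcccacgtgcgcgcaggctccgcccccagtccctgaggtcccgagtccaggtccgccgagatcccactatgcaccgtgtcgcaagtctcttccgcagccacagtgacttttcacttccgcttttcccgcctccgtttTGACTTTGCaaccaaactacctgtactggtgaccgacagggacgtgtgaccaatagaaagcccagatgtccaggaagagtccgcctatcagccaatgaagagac
PSMD3: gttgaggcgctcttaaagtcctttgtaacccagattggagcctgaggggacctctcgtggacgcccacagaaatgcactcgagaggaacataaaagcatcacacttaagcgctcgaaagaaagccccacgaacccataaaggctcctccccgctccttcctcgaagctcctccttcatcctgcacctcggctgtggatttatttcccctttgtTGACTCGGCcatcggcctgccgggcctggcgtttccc
PSMD12: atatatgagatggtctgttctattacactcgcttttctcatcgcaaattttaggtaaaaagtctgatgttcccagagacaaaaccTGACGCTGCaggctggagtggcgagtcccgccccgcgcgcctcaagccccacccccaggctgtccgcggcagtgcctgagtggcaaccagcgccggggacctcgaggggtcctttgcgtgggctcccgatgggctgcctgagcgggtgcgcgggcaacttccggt
PSMB5: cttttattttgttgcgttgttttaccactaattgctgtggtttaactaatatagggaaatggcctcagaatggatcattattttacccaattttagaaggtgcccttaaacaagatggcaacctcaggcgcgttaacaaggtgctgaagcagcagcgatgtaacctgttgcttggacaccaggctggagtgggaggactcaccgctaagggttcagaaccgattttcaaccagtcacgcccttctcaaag

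The element starts 104 bases before the start of PSMB3, 165 before that of PSMD12 and 37 before that of PSMD3. Among the 26 members with an entry, 3 held it on either strand, against 11.6% of 15812 promoters of the same length. A CCAAT box (CCAAT) was found in 13 of 26 and in 34.4% of all promoters, and a GC box (GGGCGG) in 18 of 26 and in 55.8%. The ETS site CCGGAAG was found in 6 members (11.7% of promoters), the nuclear respiratory factor 1 site GCGCANGCG in 3 (9.73%) and the YY1 site AAGATGGCG in 0 (0.759%). None of these motifs contains another, and each was searched on both strands. The members' median GC content was 60.8%, against 62.0% over all promoters. A match is a description of the letters and not a bound site.

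The H3K27ac libraries held 25.6 to 31.2 M fragments (M, 1000000) after the authors' filtering, the H3K27me3 libraries 5.03 to 10.4 M and the H3K4me1 libraries 25.6 and 34.0 M. The HA and KDM6A libraries held 11.9 to 37.4 M tags, and the inputs 0.223 to 0.725 M fragments. Regions were called without a control. All 10 plasma cell markers, among them SDC1, IRF4 and TNFRSF17, held an H3K27ac region in each ARP1 genotype. Of 6 B cell markers 2 did in WT, of 8 T and NK cell markers 4 did, of 6 myeloid and erythroid markers 2 did and of 8 epithelial and stromal markers 5 did. MS4A1, CD3D, LYZ, HBB and EPCAM were among the markers without one in WT, where 69.0% of all genes held one. The KDM6A gene itself held H3K27ac over 9699 bp (WT), 11745 bp (KO) and 9339 bp (JmjD-dead), which does not check the genotypes. Input regions were listed at 3 members for WT (8.29% of all genes), at 4 for KO (17.1%) and at 3 for JmjD-dead (5.45%). Among immunoprecipitated regions at members, 1 overlapped an input region, an H3K4me1 region of 211 bp at PSMD4 in KO.

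H3K27ac was present at every member in every genotype. All 31 genes held a region in WT, KO and JmjD-dead, where 69.0%, 71.3% and 69.3% of all genes did. No member lost its regions in KO (background 2.16%) or JmjD-dead (2.71%). Regions were ranked within their own list by the authors' −log10 q-value and then fold enrichment, so that rank 1 is the strongest. The members' best regions had a median rank of 3318 of 69127 (WT), 3413 of 76242 (KO) and 3376 of 74063 (JmjD-dead). The median best rank over all genes with a region was 7866, 7550 and 7857. Of the 31 members, 26, 27 and 27 ranked above those medians.

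The strongest acetylation belonged to PSMA2, an alpha ring subunit, at rank 718 in WT with 90.1-fold enrichment, and to PSMA4, another alpha ring subunit, at rank 794 with 87.1-fold. PSMD4, a ubiquitin receptor of the base, had ranks of 1034 (WT), 626 (KO) and 737 (JmjD-dead). It was the best ranked member in both mutants. PSMB6, the catalytic subunit with caspase-like activity, was the lowest in WT at rank 15636 and in KO at rank 12722. In JmjD-dead the lowest was PSMD6, a scaffold subunit of the lid, at rank 14155. The H3K27ac region with the best rank held the start site in 24 of the 26 members with a listed start, the exceptions being PSMC2 and PSMD8. At 10 members that WT region also lay at another gene, for example TBP beside PSMB1 and MRPL32 beside PSMA2, so its acetylation cannot be assigned to the subunit gene alone.

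Covered length, the number of base pairs of a gene's window that lie under regions, was used to compare genotypes. The members' median was 2769 bp (WT), 2996 bp (KO) and 3046 bp (JmjD-dead), and genes with a region had medians of 2532, 2706 and 2477 bp. The KO to WT ratio had a median of 1.06 over the members and 1.08 over all genes with at least 500 bp in WT. It was above 1 at 20 members and below 1 at 11, where 65.2% of all genes with at least 500 bp in WT had a ratio above 1. At 1 member the ratio was at least 1.5 (background 9.75% of genes), and at 2 members the KO length was at least 1.5 times lower (6.86%). The JmjD-dead to WT ratio had a median of 1.00 over the members and 0.98 over all genes, with 16 members above 1 and 15 below, where 44.3% of those genes were above 1. Again 1 member lay at least 1.5 times higher (4.07% of genes) and 2 at least 1.5 times lower (7.70%).

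**Figure D1:**
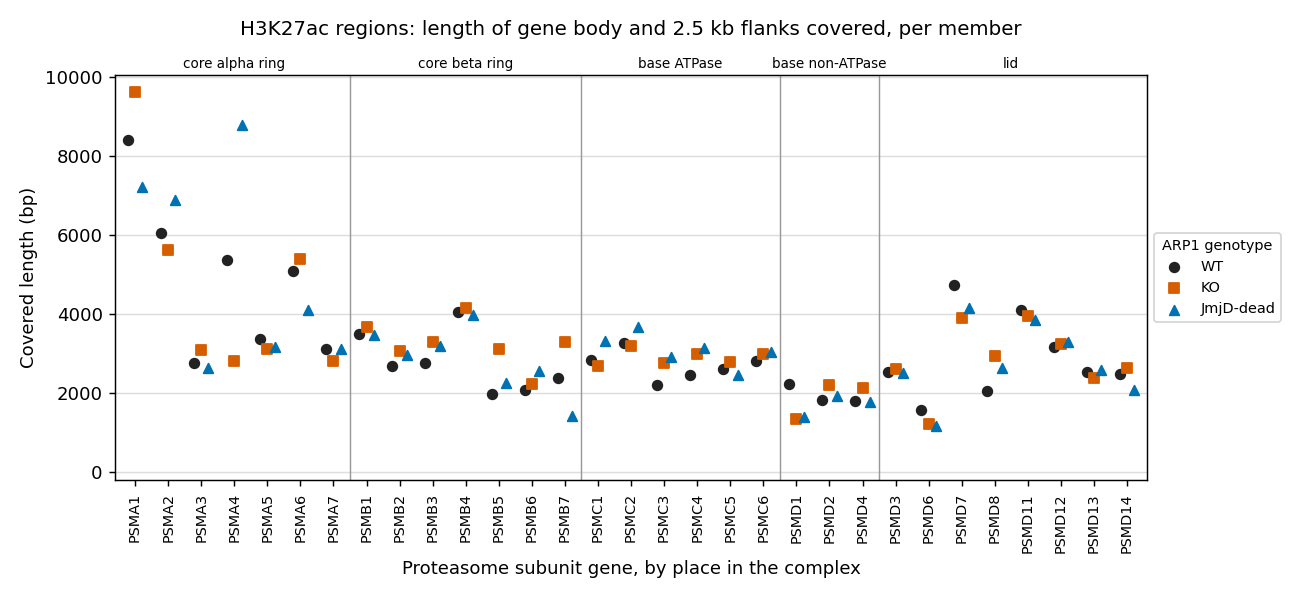
H3K27ac covered length in bp (vertical axis) for each of the 31 members (horizontal axis, grouped by place in the complex) in the 3 ARP1 genotypes, 1 library per point. PSMA1, PSMA2 and PSMA4 reach the greatest lengths, and PSMA4 spans 2824 bp in KO to 8781 bp in JmjD-dead.

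Each catalytic gene had a KO ratio above 1, as did 65.2% of all genes with at least 500 bp in WT. In JmjD-dead PSMB7 alone among them was below 1. PSMB5 was covered over 1969 bp (WT), 3105 bp (KO) and 2257 bp (JmjD-dead), so WT was lowest and the KO ratio of 1.58 was the highest among the members. The region at the PSMB5 start was itself longer, 2922 bp in KO against 1969 bp in WT, and its rank was 3640 (WT), 1643 (KO) and 2006 (JmjD-dead). PSMB6 was covered over 2072 bp (WT), 2230 bp (KO) and 2554 bp (JmjD-dead), a narrow range. PSMB7, the subunit with trypsin-like activity, was covered over 2394 bp (WT), 3303 bp (KO) and 1423 bp (JmjD-dead). Its ratios of 1.38 in KO and 0.594 in JmjD-dead lay on opposite sides of WT, and the latter was the lowest of all members in that comparison.

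PSMA4 had the widest spread, with 5368 bp (WT), 2824 bp (KO) and 8781 bp (JmjD-dead) (ratios 0.526 and 1.64). The region at its start was of like length in the 3 lists, 2640, 2581 and 2855 bp. The KO and WT lists differed mainly near the far end of the gene. In WT a region of 2222 bp began 9377 bp after the start with 14.1-fold enrichment. The JmjD-dead region there was 3903 bp long, began 8816 bp after the start and had 30.7-fold enrichment. In KO 243 bp were listed in that stretch, 11163 bp after the start. Between the start and this stretch JmjD-dead held 5 further regions of 2023 bp in all, and WT and KO held 0. Near the far end the regions added up to 2728 bp in WT against 3903 bp in JmjD-dead, so the regions in between made up more of the JmjD-dead excess over WT.

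PSMD1, the large scaffold of the base, was covered over 2226 bp (WT), 1337 bp (KO) and 1395 bp (JmjD-dead). Here too the start region was of similar length, 1287, 1337 and 1223 bp. WT held 3 further regions of 193, 515 and 231 bp, from 104121 bp into the gene onwards, where KO held none and JmjD-dead 1 of 172 bp. PSMD6 was covered over 1586 bp (WT), 1231 bp (KO) and 1177 bp (JmjD-dead), and WT was again the longest. PSMD8, a lid subunit, was covered over 2053 bp (WT), 2952 bp (KO) and 2629 bp (JmjD-dead), with ratios of 1.44 and 1.28. PSMC3, an ATPase of the base, was covered over 2198 bp (WT), 2774 bp (KO) and 2925 bp (JmjD-dead), with ratios of 1.26 and 1.33.

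By place in the complex, the median KO ratio was 1.07 for the core, 1.07 for the base and 0.996 for the lid. In JmjD-dead the medians were 0.995, 1.08 and 0.960. Each range crossed 1, and the core median over that of base and lid together was 1.04 in KO and 0.979 in JmjD-dead. Within the core the counts for the 2 rings were unequal in KO. All 7 beta ring genes had a ratio above 1 (1.02 to 1.58, median 1.14), and 3 of 7 alpha ring genes did (median 0.931), beside 65.2% of all genes. In JmjD-dead 4 of 7 beta ring genes and 3 of 7 alpha ring genes had a ratio above 1, beside 44.3% of all genes. Over the 3 genotypes WT had the shortest H3K27ac at 10 members (34.5% of all genes) and the longest at 5 (24.7%), namely PSMA5, PSMD1, PSMD6, PSMD7 and PSMD11.

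H3K4me1 differed far more between its 2 lists, at the members and across the genome. All 31 members held a region in WT (73.0% of all genes; 98.8% of genes with H3K27ac in WT), and 17 did in KO (52.9%; 63.6% of the genes with H3K27ac in WT). Their median covered length was 2315 bp in WT and 159 bp in KO. The median KO to WT ratio was 0.0494 at the members and 0.0819 over all genes, and 29 of 31 members were at least 1.5 times lower in KO, as were 91.1% of all genes with at least 500 bp in WT. At 0 members, and at 2.74% of those genes, KO was at least 1.5 times higher. In all, 14 members were without any region in KO, and 36.9% of all genes marked in WT were.

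**Figure D2:**
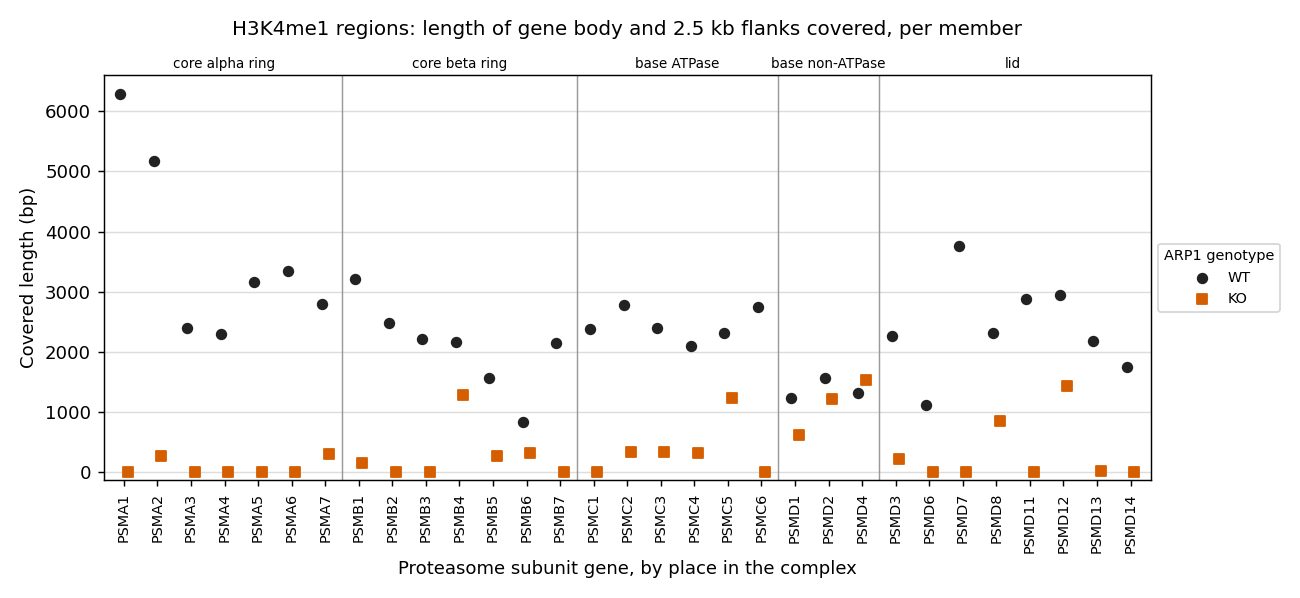
H3K4me1 covered length in bp (vertical axis) for each of the 31 members (horizontal axis, grouped by place in the complex) in ARP1 WT and KO, 1 library per point. KO points lie at 0 for 14 members, and PSMD4 is the only gene whose KO value, 1542 bp, is above its WT value, 1315 bp.

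The 2 lists also differed in where regions lay. In WT an H3K4me1 region covered the start itself in 26 of the 26 members with a listed start, and in 76.4% of all genes with H3K27ac in WT. In KO it did so in 0 of 26 members and in 1.5% of those genes. At 1000 bp into the gene the KO regions covered 5 of 26 members, and no distance in the profile had more. Of the WT H3K4me1 base pairs at the members 94.3% lay under WT H3K27ac regions, and 43.8% of the KO base pairs lay under KO H3K27ac. Counted as regions, 65 of 72 at members in WT and 23 of 45 in KO overlapped H3K27ac of the same genotype. Over the whole H3K4me1 lists 59.8% (WT) and 27.2% (KO) did. Of the 45 KO regions at members, 13 overlapped a WT H3K4me1 region, against 30.8% of the whole KO list. With 1 library each, genotype and library cannot be told apart. Every H3K4me1 value, above and below, is a difference between these 2 lists, and whether the 2 libraries are comparable was not tested.

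**Figure D3:**
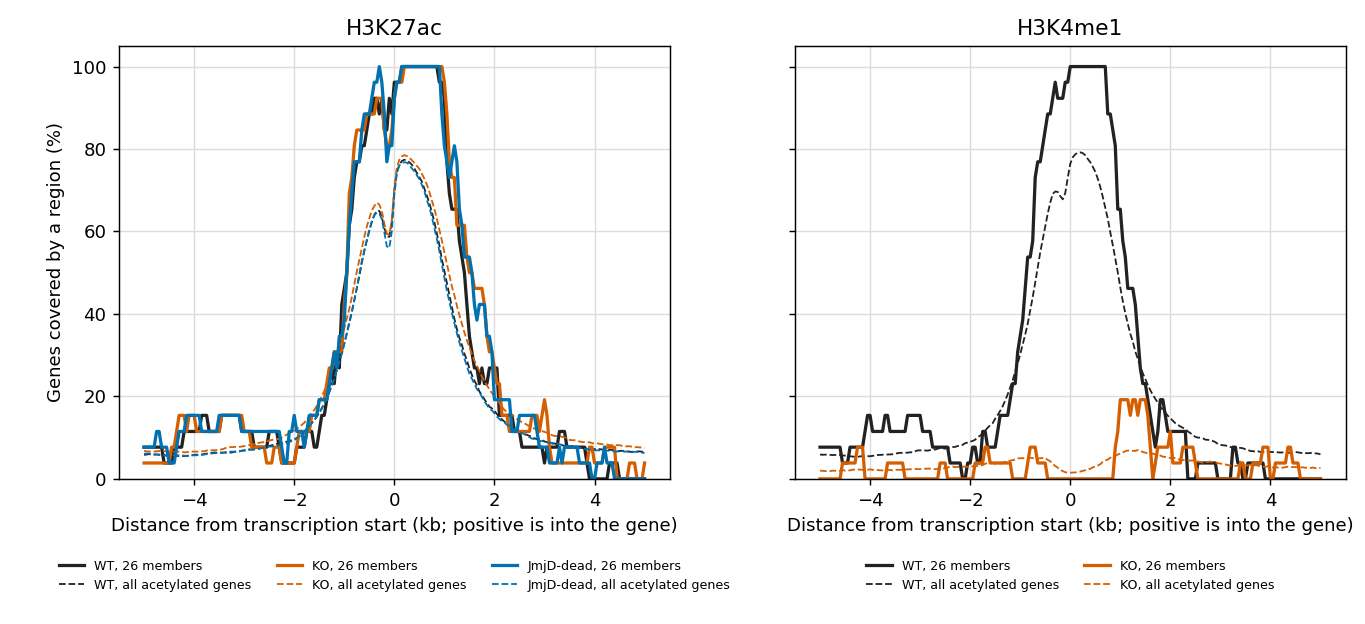
Share of genes covered by a region (vertical axis, %) by distance from the transcription start (horizontal axis, kb, positive into the gene), for 26 members (solid) and for all genes with H3K27ac in WT and a listed start (dashed). H3K27ac covers 26 of 26 members 500 bp into the gene in each genotype, and at 1500 bp it covers 9 (WT), 13 (KO) and 14 (JmjD-dead); H3K4me1 covers the start of 26 of 26 members in WT and 0 of 26 in KO.

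PSMB5 had 1568 bp of H3K4me1 in WT and 277 bp in KO (0.177). Its WT region spanned the start with 34.4-fold enrichment, and its 2 KO regions began 1246 and 1730 bp into the gene with at most 5.43-fold. PSMB6 had 829 bp in WT, the shortest of all members, and 321 bp in KO. PSMB7 had 2153 bp in WT and 0 bp in KO, so 1 of the 3 catalytic genes held no KO region.

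The least altered members were PSMD4, PSMD2 and PSMB4. PSMD4 had 1315 bp in WT and 1542 bp in KO, a ratio of 1.17. The KO length includes the 211 bp region that overlapped an input region, and without it the KO length was 1331 bp, a ratio of 1.01. PSMD2, the other large base scaffold, had 1571 bp and 1214 bp (0.773), and PSMB4, a beta ring subunit without a catalytic site, had 2165 bp and 1280 bp (0.591). Their KO regions were weak, with best folds of 6.79, 4.98 and 7.24 against 57.1, 33.6 and 42.9 in WT. PSMB4 and PSMD4 both lie on chromosome 1, in 1 Mb bins that hold over 10 times the median count of regions in at least 1 KDM6A or HA list. What that density contributes was not tested.

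The 14 members without a KO region were PSMA1, PSMA3, PSMA4, PSMA5, PSMA6, PSMB2, PSMB3, PSMB7, PSMC1, PSMC6, PSMD6, PSMD7, PSMD11 and PSMD14. The longest WT coverage among them was 6292 bp at PSMA1 and the shortest 1122 bp at PSMD6. By place in the complex they were 8 of 14 core genes, of which 5 of 7 were alpha ring genes, 2 of 9 base genes and 4 of 8 lid genes. The median ratio was 0 for the core, 0.152 for the base and 0.00526 for the lid. The 3 non-ATPase genes of the base had the highest median of any class, 0.773.

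H3K27me3 regions at the members were few, short and weak. WT listed a region at 6 members (25.1% of all genes; 34.4% of genes with H3K27ac in WT). KO listed one at 4 (18.2%; 25.0%), and JmjD-dead at 20 (37.6%; 49.1%). No region was longer than 665 bp, and folds ran from 3.37 to 6.80. None covered a listed start in any genotype. In JmjD-dead the coverage was highest 1050 bp into the gene, at 4 of 26 members.

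The WT members with H3K27me3 were PSMA2, PSMA4, PSMB7, PSMC3, PSMD3 and PSMD14. KO was without a region at 5 of these 6 (background 55.9%; 54.4% among genes with H3K27ac in WT), PSMC3 being the exception. It gained a region at 3 of 25 members, PSMA1, PSMB4 and PSMD7 (background 9.49%; 14.1% among genes with H3K27ac in WT). PSMC3 was the 1 member marked in all 3 genotypes, over 328 bp (WT), 483 bp (KO) and 1036 bp (JmjD-dead). Those regions began 972 to 2188 bp into the gene.

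JmjD-dead was without a region at 1 of the 6 members marked in WT, PSMD3 (background 24.5%; 23.0% among genes with H3K27ac in WT). It held a region at 15 of the 25 members unmarked in WT, where 24.9% of all such genes and 34.4% of those with H3K27ac in WT gained one. The gain covered 7 of 11 unmarked core genes, 3 of 8 base genes and 5 of 6 lid genes. By rank the strongest gains were at PSMB4 (rank 4400 of 37236, 6.75-fold), PSMD13 (8201), PSMC4 (9303), PSMD4 (11480), PSMD11 (13303) and PSMA7 (14513). At PSMB5 a region of 297 bp with 4.50-fold enrichment began 1364 bp into the gene, where WT and KO listed none. PSMB6 had no H3K27me3 region in any genotype.

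Most of the JmjD-dead gains were weak regions of that list. With a −log10 q-value of at least 5, 1 member gained a region (5.34% of all unmarked genes), and with the 3 lists held to equal length 5 did (6.03%). The JmjD-dead library held 10.4 M fragments and the WT library 5.03 M. What depth contributes was not tested beyond these settings. Of the 31 JmjD-dead regions at members, 1 overlapped a WT H3K27me3 region (PSMA2), against 20.4% of the whole JmjD-dead list. On JmjD-dead H3K27ac lay 16 of the 31, near the 50.6% of that whole list. At PSMA4 both JmjD-dead H3K27me3 regions, 9427 and 9971 bp after the start, lay within the JmjD-dead H3K27ac region near the far end of the gene.

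**Figure D4:**
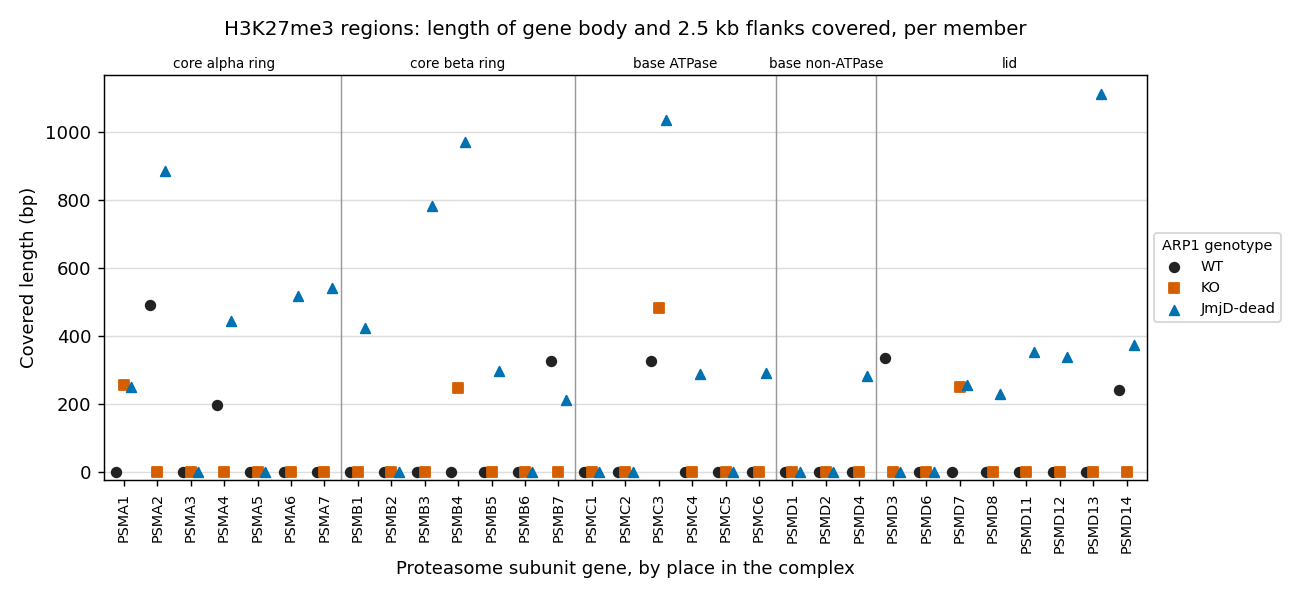
H3K27me3 covered length in bp (vertical axis) for each of the 31 members (horizontal axis, grouped by place in the complex) in the 3 ARP1 genotypes, 1 library per point. JmjD-dead is above 0 at 20 members and reaches 1113 bp at PSMD13, WT is above 0 at 6 and KO at 4.

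Few members held a region of the KDM6A antibody in ARP1. WT listed one at 5 members, PSMA1, PSMB7, PSMC2, PSMD12 and PSMD14 (29.6% of all genes; 36.8% of genes with H3K27ac in WT). KO listed one at 1, PSMC1 (11.4%; 13.5%), which had no WT counterpart (background 5.95%). All 5 WT members kept a region after removal of those overlapping the KO list, as did 5483 of the 5922 genes with a WT region. The KO list held no region at these 5 members. Such WT-only regions lay at 27.5% of all genes and at 34.2% of genes with H3K27ac in WT. In KARPAS 13 members held a KDM6A region (44.4% of all genes; 52.7% of genes with H3K27ac in ARP1 WT). The HA antibody gave regions at 12 members in the HA-tagged line (36.4%; 49.1%) and at 10 in WT (29.3%; 37.8%). A region of the tagged line without a WT counterpart lay at 10 members (32.6%; 44.0%), and the reverse at 8 (25.2%).

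**Figure D5:**
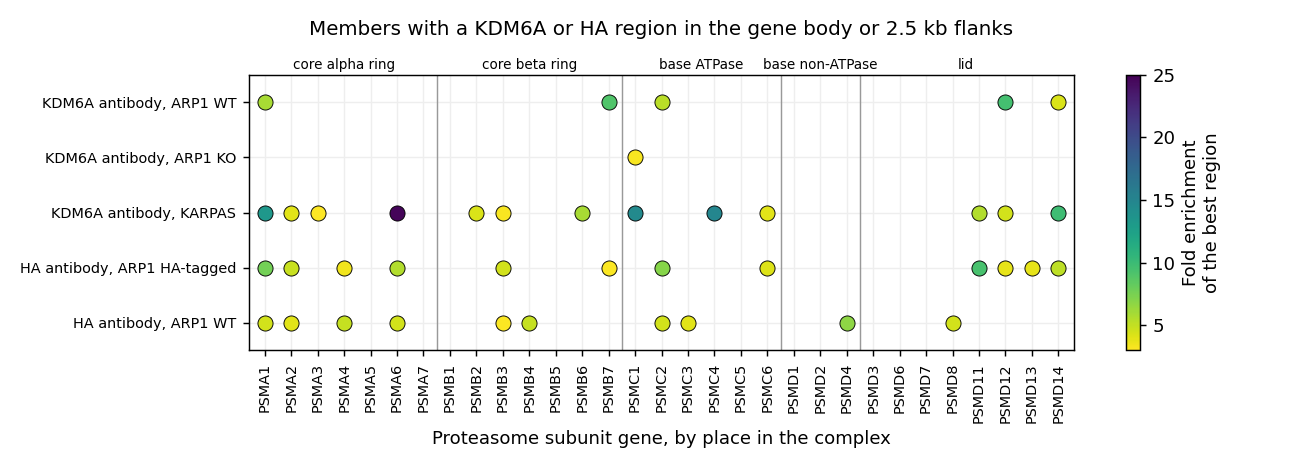
Members (horizontal axis, grouped by place in the complex) with a region of the KDM6A or HA antibody in 5 lists (vertical axis), coloured by the fold enrichment of the best region. PSMA6 in KARPAS has the highest fold, 24.7, and the KDM6A list of ARP1 KO has a point at PSMC1 alone.

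PSMD12, a lid subunit, had KDM6A and HA regions next to the promoter printed above. The KDM6A region of ARP1 WT (chr17:67366871-67367192) ended 294 bases before the start on the gene's strand, had 9.57-fold enrichment and ranked 10946 of 90964. The HA-tagged region (chr17:67366722-67366921) ended 145 bases before the start, covers part of the printed sequence and had 3.83-fold enrichment. In KARPAS a region of 4.51-fold enrichment ended 160 bases before the start. The antioxidant response element, 165 bases before the start, begins inside the HA-tagged and KARPAS regions and lies outside the KDM6A region of ARP1 WT. No KDM6A region in KO and no HA region in WT lay at this gene, and all 3 regions lay on ARP1 WT H3K27ac.

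PSMA1, an alpha ring subunit, had a site of the same kind inside its annotated gene body, far upstream of the start used here. The ARP1 WT KDM6A region (chr11:14578579-14578852) ended 58193 bases before that start with 5.85-fold enrichment, and the HA-tagged region there had 7.66-fold and the KARPAS region 13.3-fold, at rank 5346 of 55867. A further 3 KDM6A regions of ARP1 WT lay at least 108287 bases upstream of that start, and 2 of them overlapped WT HA regions. PSMC2, an ATPase of the base, had a KDM6A region of 5.32-fold enrichment ending 930 bases before its start, overlapped by an HA-tagged region of 6.96-fold, with none in KARPAS. Of the 8 KDM6A regions at members, 3 thus overlapped tagged-only HA regions and 2 also overlapped a KARPAS region. Over the whole genome 16.4% of the 63118 WT-only KDM6A regions overlapped a tagged-only HA region and 5.62% overlapped both.

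PSMB7 held a KDM6A region (chr9:124394250-124394619) of 9.04-fold enrichment within the gene body, with no HA or KARPAS region on it. It overlapped an H3K27ac region of 431 bp in WT, and KO had an acetylated region of 1064 bp there. JmjD-dead listed no H3K27ac at that place. Its 213 bp H3K27me3 region (chr9:124393979-124394191), of 3.37-fold enrichment and rank 37190 of 37236, lay beside the KDM6A region and did not overlap it. At PSMD14 the KDM6A region had 4.25-fold enrichment and lay 76508 bp into the gene, off H3K27ac.

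The highest folds of the KDM6A antibody at members were in KARPAS. PSMA6, an alpha ring subunit, held 5 regions, the best of 2026 bp with 24.7-fold enrichment at rank 936 of 55867, ending 5104 bases before the start and inside the annotated gene. PSMC4, an ATPase, ranked 4239 with 14.9-fold, and PSMC1, another ATPase, ranked 4383 with 14.6-fold, 2267 bases upstream of its start. Neither ATPase gene had a KDM6A region in ARP1 WT. The KARPAS library held 37.4 M tags and the ARP1 WT library 11.9 M, and what depth contributes was not tested. KARPAS had no KO list, so its regions could not be filtered as those of ARP1 WT were. PSMA1 at rank 5346, PSMD14 at 9600 and PSMB6 at 21843 came next. PSMB5 held no region of either antibody in any list. By place in the complex KARPAS regions lay at 7 of 14 core, 3 of 9 base and 3 of 8 lid genes, and none of the 3 non-ATPase base genes had one.

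The tagged-only HA regions lay at PSMA1, PSMA2, PSMB3, PSMB7, PSMC2, PSMC6, PSMD11, PSMD12, PSMD13 and PSMD14, which are 4 of 14 core, 2 of 9 base and 4 of 8 lid genes. The best ranked was at PSMD11, a lid subunit, at 6476 of 54338 with 9.40-fold enrichment, 2370 bases upstream of the start. At PSMB3, a beta ring subunit, a region of 614 bp with 4.53-fold covered the start and the printed promoter. PSMA4 and PSMA6 had HA regions over the start in both the tagged and the WT list, which leaves them outside the tagged-only set. The HA list of WT cells was highest at PSMD4, with 6.72-fold enrichment at rank 13245 of 78725.

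Another 35 genes of the pathway were examined: the inducible catalytic subunits, activators and inhibitor, assembly chaperones, associated proteins, ubiquitin genes and shuttles, and regulators of subunit transcription. All but PSMB11, the thymus-specific subunit, held H3K27ac in each ARP1 genotype. Their median H3K27ac ratio was 1.10 in KO and 0.977 in JmjD-dead. In KO 4 of 34 were at least 1.5 times lower (6.86% of all genes with at least 500 bp in WT) and 1 was at least 1.5 times higher (9.75%). The KO ratio was above 1 at 22 (65.2%). PSMF1, a proteasome inhibitor, was lowest with 1807 bp against 4207 bp in WT (0.43), then PSMA8, the testis form of PSMA7, with 3072 against 6071 bp (0.506). PSMG4, a chaperone, had a ratio near the upper end, with 1999 against 1377 bp (1.45).

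In JmjD-dead the lowest of these genes were NGLY1, the glycanase that processes NFE2L1, at 0.652, and PSMF1 at 0.784. The highest were PSME4, an activator, at 1.26 and PSMG4 at 1.24. No H3K4me1 region was listed in KO at 11 of the 34 marked in WT (36.9% of all marked genes), with a median ratio of 0.0969. NFE2L2, a relative of NFE2L1, had the highest ratio, with 2878 bp against 3865 bp (0.745), followed by PSMF1 (0.691). H3K27me3 lay at 13 of the 35 in WT (25.1% of all genes and 34.4% of genes with H3K27ac in WT). In KO it lay at 14 (18.2% and 25.0%) and in JmjD-dead at 18 (37.6% and 49.1%). JmjD-dead gained a region at 10 of 22 (24.9% of all genes without a WT region; 34.4% of those with H3K27ac in WT). KDM6A regions without a KO counterpart lay at 10 of the 35 (27.5% of all genes; 34.2% of genes with H3K27ac in WT). Tagged-only HA regions lay at 16 (32.6%; 44.0%), and KARPAS KDM6A regions at 15 (44.4%; 52.7%). Best ranked in the KDM6A set were SEM1 and NGLY1 (ranks 8841 and 15395), and PSMA8 ranked 1922 in the HA set.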

How the data were processed

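Per the labels' protocols, chromatin was fixed with formaldehyde, sonicated, immunoprecipitated and tagmented on beads. Trimmomatic, FastQC, MultiQC, Bowtie2 and MACS2 2.1.2 with GRCh38 were used, per the submitters' processing notes. Per the file headers, MACS 2.2.7.1 called the input, H3K27ac and H3K27me3 lists and 2.1.1.20160309 the others, separately for each library. Neither a control nor a local background was used, and the q-value limit was 0.05, per the file headers. Duplicates were removed in calling, at redundant rates of 0.36 to 0.61 for input, H3K27ac and H3K27me3, 0.04 or 0.05 for HA and KDM6A and 0.00 for H3K4me1. HA and KDM6A tags were extended to 200 bp.

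The deposited lists hold 4 values of the authors per region: pileup (signal), fold enrichment (a ratio), and the −log10 of the p-value and of the q-value. They served to rank and filter regions within a list. Fold enrichments are also quoted side by side across lists, which differ in depth and were called without a control. Rows sharing coordinates were merged as summits of 1 region, and the numbered chromosomes and X were kept. A gene's window was its body and 2.5 kb at each end. Overlap meant at least 1 bp. Lost and gained mean a region in WT but not the mutant, and the reverse. Depth limits which weak regions reach a list. Counts carry no error because groups had 1 library.

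The members, lists and motifs were chosen with earlier results of these data known. Named genes were the catalytic genes, the 3 highest and 3 lowest ratios per comparison, every member whose presence differed (or the 6 best ranked where over 12 did), and 2 at each end of the other genes of the pathway, of which some are not reported here. Members described beyond that rule were chosen after their values were seen. Alternatives were regions with −log10 q of at least 5, lists of equal length, 1 kb or 10 kb windows, gene ends only, removal of input regions and 50% overlap. Removal of 207 dense 1 Mb bins was chosen after seeing the data. Scripts ran under Python 3.11.15 with pandas 2.3.3, numpy 2.4.6, matplotlib 3.10.9 and scipy 1.17.1, and their functions were tested on simulated data.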

Additional observations from a re-analysis of the deposited data

How the results depend on the processing

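Of 77 alternative values for the 12 results, 12 moved a count by over 1.5 times and 65 did not. The 65 include the H3K4me1 median ratio, which is not a count and did change by over 1.5 times in some settings. Its value was 0.0494 as reported, 0.0926 with 10 kb windows and 0.0249 with gene ends only. It was 0 with a −log10 q-value of at least 5 and with 1 kb windows. With a −log10 q-value of at least 5, WT listed H3K27me3 at 1 member, and KO lost it there (48.3% of all genes marked in WT). KO gained it at 1 member (5.32% of all unmarked genes) and JmjD-dead at 1 (5.34%). Tagged-only HA regions lay at 6 members (24.5% of all genes) and KARPAS KDM6A regions at 8 (35.8%). With equal list lengths, WT listed H3K27me3 at 3 members. It was lost at 3 in KO (50.6% of all genes marked in WT) and at 3 in JmjD-dead (57.3%). JmjD-dead gained it at 5 (6.03% of all unmarked genes), and WT-only KDM6A regions lay at 3 (17.1% of all genes). With gene ends only, JmjD-dead lost H3K27me3 at 2 of the 6 members marked in WT (35.4% of all genes marked in WT). WT-only KDM6A regions then lay at 2 members (8.28% of all genes) and KARPAS regions at 8 (24.9%). Each of these settings keeps fewer regions by construction; beyond that the cause was not tested. The median H3K27ac ratio ran from 1.03 to 1.06 in KO and from 0.989 to 1.02 in JmjD-dead, and the H3K4me1 ratio from 0 to 0.0926. The core ratio over that of base and lid ran from 0.973 to 1.04 in KO and from 0.979 to 1.01 in JmjD-dead, so its side of 1 depended on the setting in both. No paired analysis was possible because each group had 1 library.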
